A study of Mus musculus with 13 samples.

Results

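The 10 genes described here encode transcription factors and coactivators of the brown adipocyte, namely Prdm16, Ebf2, Tbx15, Pparg, Cebpa, Cebpb, Ppara, Esrra, Ppargc1a and Ppargc1b. They were chosen by name, for their known role in brown fat, and not by their values in these libraries. All 10 were found among the 42416 Ensembl identifiers of the count files, and all 10 were among the 13360 genes that had more than 1 CPM (counts per M counts of the library) in at least 5 of 13 libraries and could be tested.

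Transcripts were measured by bulk RNA sequencing in interscapular brown adipose tissue (iBAT) of 8 iFAXLKO mice and 5 WT mice, all female, with 1 library per mouse. Mice of both groups carried loxP-Axl-loxP on both alleles, lived at room temperature on a high-fat diet (HFD), and were given tamoxifen at intervals of 3 weeks, starting as young adults. The iFAXLKO mice also carried one copy of Adipoq-CreERT2, a transgene made from a bacterial artificial chromosome around Adipoq that expresses a tamoxifen-inducible Cre in adipocytes, whereas the WT mice were Cre- littermates. Axl is therefore floxed in all cells of both groups and is a target for Cre in adipocytes only, so that the fibroblasts, macrophages and vessels of the depot should keep it. The comparison asks whether induced Cre activity against Axl, a receptor tyrosine kinase, goes with altered levels of the factors that set up and drive the brown adipocyte program. In bulk tissue, fewer cells of a type and less RNA per cell cannot be told apart.

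Brown adipocytes arise from precursors in which EBF2 opens chromatin at brown fat genes and PRDM16 acts as a switch towards the brown and away from the muscle and white fate. PPARγ, with C/EBPα and C/EBPβ, runs fat cell differentiation as such, and PPARα and the estrogen-related receptor ERRα add the genes of fatty acid oxidation and of mitochondria. PGC-1α and PGC-1β are coactivators that dock on these receptors, and the gene of PGC-1α is a classical target of the cAMP and PKA pathway that adrenergic signals use in brown fat.

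Libraries held 22.44 to 32.60 M counts, and a count of 0 allows up to 3 counts, or 0.0920 to 0.134 CPM, which covers counting error only. The lowest count of a member in any library was 64 (Tbx15). Reads of Axl, counted along its full length and from every cell type of the tissue, made 33.1 ± 6.16 CPM in iFAXLKO (SD, n = 8) and 27.8 ± 3.82 CPM in WT (SD, n = 5). The targeted transcript was thus not reduced in iFAXLKO, with a log2 fold change of 0.25 (SE 0.13, edgeR adjusted p 0.699). Group directions below therefore refer to libraries as labelled. Ucp1, the defining gene of brown fat, was at 5599 ± 1121 CPM in iFAXLKO (SD, n = 8) and 6367 ± 914 CPM in WT (SD, n = 5), so that every library had the transcript of brown adipocytes. The markers of other cells were uneven: all 9 fibroblast markers had an unadjusted edgeR p under 0.05 and were higher in iFAXLKO, with summed levels of 542 to 1195 CPM against 390.4 to 698 CPM, and so were all 7 macrophage markers (0 of either list passed the adjusted p), whereas 13 skeletal muscle markers ranged from 3.18 to 5655 CPM in sum across iFAXLKO libraries and from 23.2 to 3934 CPM across WT. The medians were 0.21 for 6 endothelial and 0.06 for 5 Schwann cell markers (log2 fold change), and 0 of 6 lymphocyte markers were high enough to be tested. The first principal component held 43.0% of the variance, with iFAXLKO replicate 8 (55.1) and WT replicate 5 (42.5) at one end and iFAXLKO replicate 5 (-38.0) at the other. WT replicate 2 stood apart from the other 12 libraries on the second principal component, which held 13.5% of the variance.

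Per length of exon, the order of the members was led by Cebpa, and the classical determinants of brown identity were at its lower end. Cebpa (chromosome 7, 35119293 to 35121928, GRCm38), a driver of fat cell differentiation without introns, had 199 ± 37.1 CPM per kb (SD, n = 13) and was above the next member, its relative Cebpb (chromosome 2, 167688915 to 167690418), in 13 of 13 libraries. Cebpb with 84.5 ± 14.3 CPM per kb, Pparg (chromosome 6, 115360951 to 115490399) with 65.5 ± 8.64 and Esrra (chromosome 19, 6910977 to 6921813) with 51.9 ± 6.79 followed, and the ranges of neighbours in this order overlapped. The order among Cebpb, Pparg and Esrra depends on the length used. Their merged exons have 1504, 2953 and 4387 bases, whereas a single annotated transcript has 1504, 2125 and 2242. Ppara (chromosome 15, 85734983 to 85802819) had 30.4 ± 12.8 CPM per kb and overlapped with both Esrra above it and Ppargc1b below it. Ppargc1b (chromosome 18, 61298136 to 61400431), with 22.7 ± 3.69 CPM per kb, was above all values of the next member in 13 of 13 libraries. Ebf2 (chromosome 14, 67233292 to 67430918) had 8.03 ± 1.75 CPM per kb and Ppargc1a (chromosome 5, 51454250 to 51567726) 5.65 ± 1.02, with overlapping ranges. Prdm16 (chromosome 4, 154316125 to 154636873) lay between 1.74 and 3.77 CPM per kb, and Tbx15 (chromosome 3, 99240381 to 99354259) had 1.36 ± 0.65, which is 0.682% of the level of Cebpa. The coactivator PGC-1β thus had the higher transcript level of the pair in every library, the mean of Ppargc1b lying above that of Ppargc1a and their ranges being separate (14.2 to 29.1 against 4.27 to 7.19 CPM per kb).

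**Figure D1:**
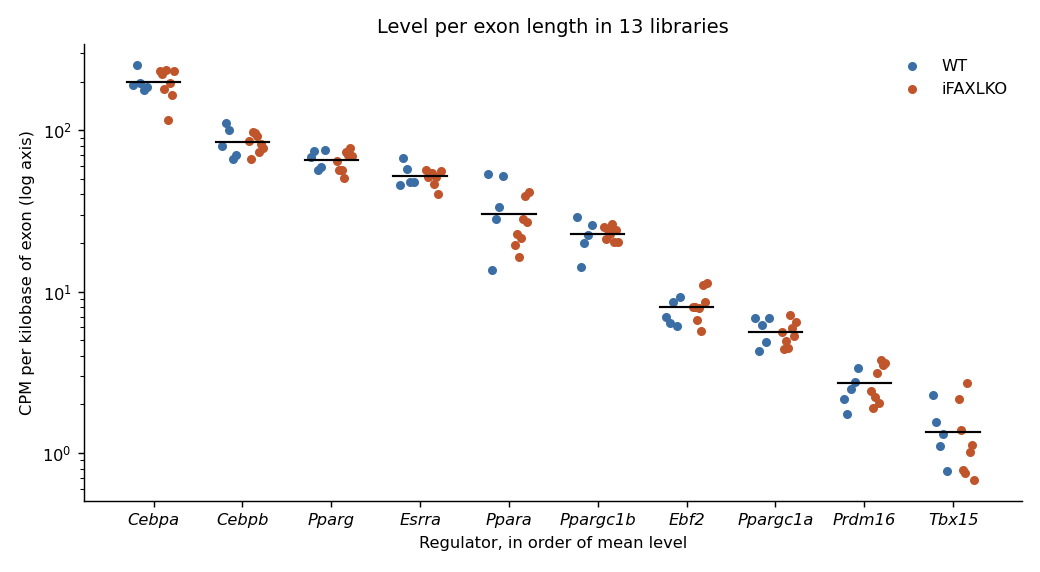
Level of each regulator as CPM per kilobase of merged exon on a log axis, with 1 dot per library (blue, WT, n = 5; orange, iFAXLKO, n = 8) and a bar at the mean of 13 libraries. The order runs from Cebpa at 199 to Tbx15 at 1.36 CPM per kb, and the dots of the groups overlap for each gene.

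No difference between iFAXLKO and WT was detected for any member. In the quasi-likelihood test of edgeR, 0 of 10 passed an adjusted p of 0.05, beside 0.127% of all genes tested (17 of 13360, with 0.0973% higher, 0.0299% lower and 0.0898% at least 2-fold changed as well). At an unadjusted p under 0.05 there were also 0 of 10 in edgeR, beside 7.38% of all genes (3.84% higher and 3.54% lower). DESeq2 likewise gave 0 of 10, beside 1109 of 13360 genes. In limma-voom with sample quality weights it was 1 of 10 (Ppara, -0.57, unadjusted p 0.0333, adjusted p 0.388), beside 1523 of 13360 genes. The adjusted p-values ran from 0.824 to 0.988, and exact permutation p-values, 2-sided over all 1287 arrangements of the group labels, from 0.350 upwards, where 0.000777 is the smallest possible. The group ranges overlapped for all 10, beside 0.434% of genes with separate ranges. A total of 7 members had a negative log2 fold change, beside 53.6% of all genes, and their median was -0.04, beside -0.01 over all genes tested. For 9 of 10 members the 95% interval lay within a 2-fold change in either direction, the exception being Ppara.

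**Figure D2:**
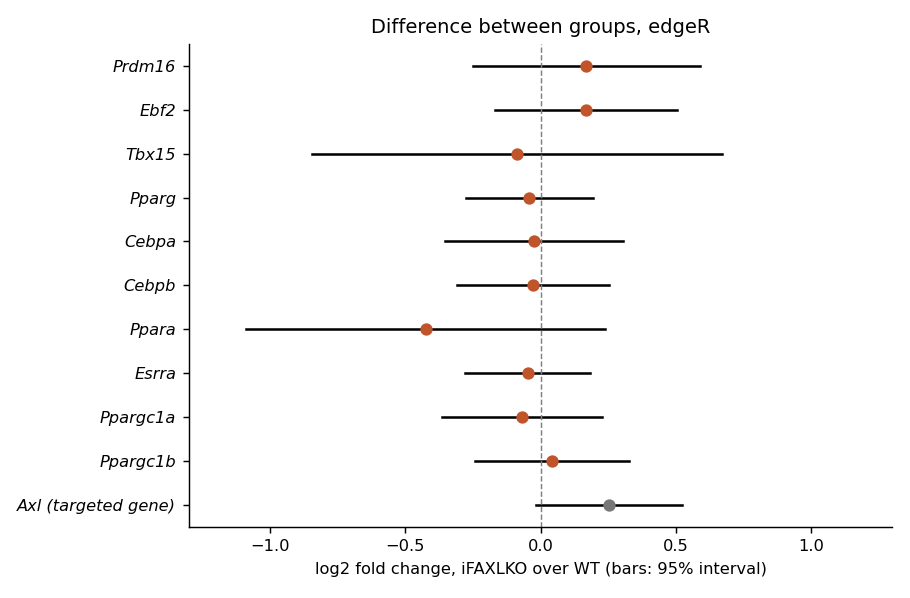
log2 fold change of iFAXLKO over WT for each regulator and for Axl, with 95% intervals from the edgeR fit as bars and a dashed line at 0. Every bar crosses 0, and the widest belong to Ppara (-1.09 to 0.24) and Tbx15 (-0.84 to 0.67).

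Among the determinants of brown identity, Prdm16, which encodes a zinc finger coregulator, had 20.3, 16.3, 23.2, 25.8 and 31.5 CPM in WT replicates 1 to 5. In iFAXLKO the lowest, median and highest values were 17.6, 25.9 and 35.2 CPM. The groups covered nearly the same range, 5 of 8 iFAXLKO libraries lying inside that of the controls. The log2 fold change was 0.17 (SE 0.20, 95% interval -0.25 to 0.59, edgeR adjusted p 0.910), so that a level of 84.0% to 150.3% of WT is within the interval. Ebf2, the precursor factor that opens chromatin at brown fat genes, had 48.3, 44.2, 59.7, 42.2 and 64.1 CPM in the WT libraries, and 39.6, 55.5 and 78.2 CPM as lowest, median and highest values of iFAXLKO. Both the lowest and the highest library of all 13 were iFAXLKO, and the WT values lay between them. Its log2 fold change was 0.17 (SE 0.16, 95% interval -0.17 to 0.50, edgeR adjusted p 0.879).

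Tbx15, a T-box factor that is used in brown fat precursors and is also known from skeletal muscle, was at 8.58, 5.82, 4.15, 4.89 and 2.91 CPM in WT replicates 1 to 5, and its iFAXLKO values had a lowest of 2.55, a median of 4.01 and a highest of 10.2 CPM. The libraries with most Tbx15 were 1 WT and 2 iFAXLKO libraries and the groups overlapped over most of their ranges. With a 3.99-fold span from the lowest to the highest library, its within-group SD of 0.67 (log2) was above that of 96.6% of the genes tested. The log2 fold change was -0.09 (SE 0.35, 95% interval -0.84 to 0.67, edgeR adjusted p 0.982), an interval that spans 55.7% to 159% of WT.

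The group means of the general adipogenic factors lay close together, and none of the 3 passed the test. Pparg, the master regulator of fat cells, was at 201, 221, 167, 175 and 222 CPM in WT and had 149.7, 197 and 228 CPM as lowest, median and highest iFAXLKO values. The log2 fold change of -0.04 (SE 0.11, 95% interval -0.28 to 0.19, edgeR adjusted p 0.972) leaves room for a level between 82.5% and 114% of WT. Cebpa was at 505, 670.0, 515, 470.1 and 489.7 CPM in WT, where replicate 2 lay far above the other 4, and between 303.7 and 624 CPM in iFAXLKO with a median of 551. Its log2 fold change was -0.03 (SE 0.15, 95% interval -0.35 to 0.30, edgeR adjusted p 0.988). Cebpb, an early factor of adipogenesis that also responds to cAMP, was at 120.3, 167, 152, 99.1 and 105 CPM in WT and between 99.2 and 147 CPM in iFAXLKO, with a median of 126. All 8 iFAXLKO libraries fell inside the WT range, and the log2 fold change was -0.03 (SE 0.13, 95% interval -0.31 to 0.25, edgeR adjusted p 0.984). Cebpb shares 312 bases of exon with Tmem189 on the opposite strand and Esrra shares 73 with Trmt112, and the strand setting of the counting is not given in the sources used here, so reads of such pairs cannot be told apart.

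The receptors of oxidative metabolism behaved unlike each other in spread. Ppara, the receptor behind fatty acid oxidation genes, was at 204, 52.5, 107, 128 and 199.7 CPM in WT replicates 1 to 5, a range that held all 8 iFAXLKO libraries, whose lowest, median and highest values were 63.0, 95.3 and 158 CPM. The WT group thus contained both the lowest and the highest library of all. Its log2 fold change was -0.42 (SE 0.31, 95% interval -1.09 to 0.24, edgeR adjusted p 0.824), with 2 of 8 iFAXLKO libraries above the WT mean, and its within-group SD of 0.61 (log2) exceeded that of 95.9% of genes. Without WT replicate 2 it came to -0.63, with an unadjusted edgeR p of 0.0299 and an adjusted p of 0.375. In that fit 1594 of 13338 genes had an unadjusted p under 0.05. Without WT replicate 1 or 5 the log2 fold change of Ppara came to -0.24 or -0.26. Esrra, the gene of ERRα, was at 199.8, 293, 251, 209 and 209 CPM in WT and between 175 and 248.8 CPM in iFAXLKO with a median of 232. It had the smallest within-group SD of the members (0.19 on the log2 scale), and its log2 fold change was -0.05 (SE 0.11, 95% interval -0.28 to 0.18, edgeR adjusted p 0.969).

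Neither coactivator passed the test. Ppargc1a was at 45.1, 28.1, 40.9, 32.3 and 45.4 CPM in WT, and its lowest, median and highest iFAXLKO values were 29.0, 35.9 and 47.4 CPM. Of the iFAXLKO libraries, 7 of 8 lay inside the WT range. The log2 fold change was -0.07 (SE 0.14, 95% interval -0.37 to 0.22, edgeR adjusted p 0.960), that is 77.6% to 117% of WT. Ppargc1b was at 116, 56.8, 79.5, 89.6 and 103 CPM in WT, whereas all 8 iFAXLKO libraries lay between 81.4 and 105 CPM, inside the WT range, with a median of 92.8. Its log2 fold change was 0.04 (SE 0.13, 95% interval -0.24 to 0.33, edgeR adjusted p 0.976).

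**Figure D3:**
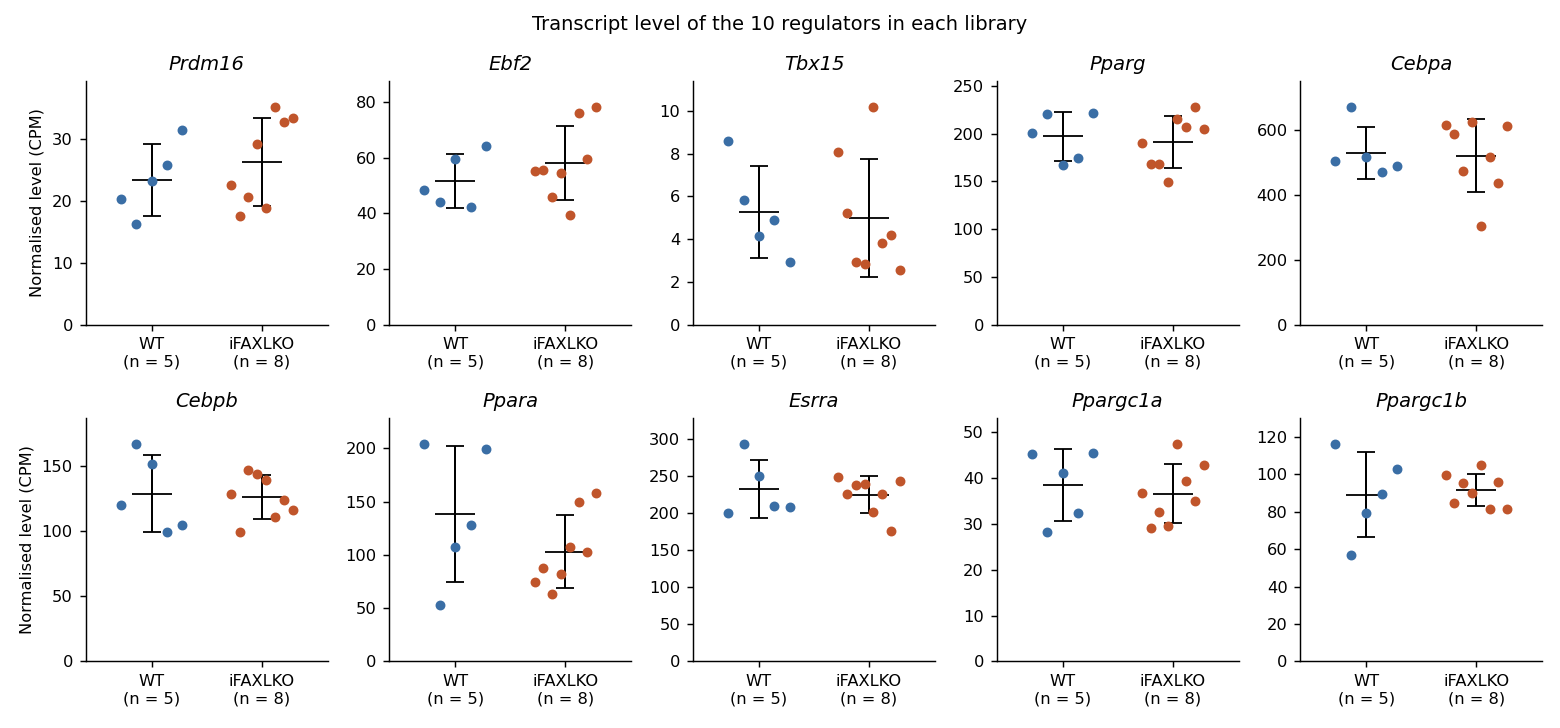
CPM of the 10 regulators in each library, with 1 panel per gene and axes that start at 0 (blue, WT, n = 5; orange, iFAXLKO, n = 8; dash and bars, mean ± SD). In all 10 panels the groups overlap, with the largest relative spread in Ppara and Tbx15.

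The promoters of Ppargc1a, Ppara and Cebpb are shown because they hold the core TGACG of the cAMP response element (CRE), on which factors downstream of cAMP and PKA act, and because cAMP is a pathway the study is concerned with. RefSeq promoters (GRCm38.p6, 250 bases before to 50 after the start site) were matched for 7 of 10 members, with 9 promoters in all. Ebf2, Ppargc1b and Tbx15 were not matched. On either strand, TGACG was found in promoters of 3 members, and 20.8% of 32851 promoters of the same length hold it. Below are the 250 bases before the start site, 5′ to 3′ on the strand of the gene, with each TGACG or its complement CGTCA in capitals, for Ppargc1a (chr5:51567726-51567975, minus strand, 48% GC), Ppara (chr15:85735526-85735775, plus strand, 76.4% GC) and Cebpb (chr2:167688665-167688914, plus strand, 81.6% GC).
Ppargc1a: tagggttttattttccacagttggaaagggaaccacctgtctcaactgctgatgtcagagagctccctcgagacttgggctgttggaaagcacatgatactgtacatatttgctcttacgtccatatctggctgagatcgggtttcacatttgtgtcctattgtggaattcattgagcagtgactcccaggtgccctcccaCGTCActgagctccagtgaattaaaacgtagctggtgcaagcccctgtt
Ppara: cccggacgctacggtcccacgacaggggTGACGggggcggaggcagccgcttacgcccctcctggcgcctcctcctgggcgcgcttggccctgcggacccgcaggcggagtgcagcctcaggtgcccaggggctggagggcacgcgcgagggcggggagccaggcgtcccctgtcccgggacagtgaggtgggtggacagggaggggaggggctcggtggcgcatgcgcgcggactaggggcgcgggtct
Cebpb: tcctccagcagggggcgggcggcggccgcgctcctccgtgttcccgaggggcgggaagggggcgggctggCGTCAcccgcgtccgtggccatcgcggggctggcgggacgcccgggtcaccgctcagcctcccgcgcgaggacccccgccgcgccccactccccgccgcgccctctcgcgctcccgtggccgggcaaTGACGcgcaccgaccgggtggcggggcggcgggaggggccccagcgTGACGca

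The core lay 49 bases before the start site in Ppargc1a and 222 bases before it in Ppara, whereas Cebpb had 3 copies, at 180, 53 and 7 bases before it. These 3 members had log2 fold changes of -0.07, -0.42 and -0.03, none of which passed the test. Of the other motifs searched on both strands, AGGTCA, the core of nuclear receptor sites, was found in 1 member (Pparg; 16.3% of all promoters), TTGCNNAA, a C/EBP motif, in 1 (Pparg; 10.8%) and TATAAA in 3 (Pparg, Cebpa and Cebpb; 13.6%). A match of letters is a description of the sequence and not evidence of binding.

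Library numbers in the labels fall into a lower run (4 iFAXLKO and 2 WT) and an upper run (4 iFAXLKO and 3 WT). The mean log2 difference of iFAXLKO minus WT within the lower and the upper run was 0.28 and 0.13 for Prdm16, 0.19 and 0.17 for Ebf2, -0.44 and -0.14 for Ppara, -0.03 and -0.12 for Cebpa, 0.18 and 0.00 for Ppargc1b and -0.03 and -0.08 for Esrra. For the other 4 members the sign differed between the runs, with -0.32 and 0.20 for Pparg, -0.14 and 0.06 for Cebpb, -0.16 and 0.06 for Ppargc1a and -0.70 and 0.21 for Tbx15. With a fibroblast score (mean log2 CPM of the 9 markers) as a covariate, 1 member instead of 7 had a negative log2 fold change, Ebf2 came to 0.47 (unadjusted edgeR p 0.0436, adjusted p 0.999) and 0 of 10 were called. In that fit 198 of 13360 genes had an unadjusted p under 0.05. The score was itself 0.60 (log2) higher in iFAXLKO, with all 8 libraries above the WT mean. Score and group can therefore not be fully separated, and these values are not estimates at equal cell composition.

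The members did not move as one across the libraries. Of 45 pairs, 8 had a Pearson r above 0.5 and 7 below -0.5 (log2 CPM with group means subtracted, 13 libraries), with a median of 0.04. These are descriptions, since all pairs share the same libraries and their depth. Prdm16 and Ebf2, the identity factors, went together (r = 0.72), as did Ppara and Ppargc1a (0.74) and Cebpa and Esrra (0.68), whereas Ppargc1b and Esrra (-0.73), Ppara and Cebpb (-0.67) and Prdm16 and Tbx15 (-0.62) went against each other. WT replicate 2 was the lowest of all 13 libraries for Prdm16, Ppara, Ppargc1a and Ppargc1b and the highest for Cebpa, Cebpb and Esrra, and so lay at an end of the range for 7 of 10 members. Without it, r was 0.71 for Prdm16 and Ebf2, 0.64 for Ppara and Ppargc1a, 0.62 for Cebpa and Esrra and -0.56 for Ppargc1b and Esrra.

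Each member was then related to 4 measures of the libraries, namely a skeletal muscle score and a fibroblast score (mean log2 CPM of each marker list), Ucp1 and Axl, which made 40 relations with group means subtracted and p-values from 100000 permutations of libraries within groups. A single relation passed the Benjamini-Hochberg adjustment, and 5 had an unadjusted p under 0.05. Tbx15 rose with the skeletal muscle score, with Pearson's r = 0.85 (permutation p 0.00063, adjusted 0.0252) and Spearman's rho = 0.95 (permutation p 6e-05, adjusted 0.00240). The highest muscle scores, 8.22, 7.66 and 7.65 (log2), belonged to iFAXLKO replicate 5, WT replicate 1 and iFAXLKO replicate 1, which were also the libraries with most Tbx15 (10.2, 8.58 and 8.05 CPM). The lowest, -1.94 and 0.38, belonged to iFAXLKO replicate 8 and WT replicate 5, with 2.55 and 2.91 CPM. Without these last 2, which are farthest from the median, r was 0.94, and within the runs of library numbers it was 0.95 (n = 6) and 0.84 (n = 7). With each library left out in turn, r was 0.83 to 0.87, and the adjusted p lay above 0.05 without iFAXLKO replicate 1 (0.126), iFAXLKO replicate 7 (0.0600), WT replicate 2 (0.0600) or WT replicate 5 (0.0840). The tested genes most like Tbx15 across the 13 libraries were Mlip, Hspb6 and Pkia, each with r = 0.99.

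Prdm16 and Ebf2 had negative values, with r = -0.62 (permutation p 0.0301, adjusted 0.348; rho = -0.61, permutation p 0.0411, adjusted 0.411) and r = -0.59 (permutation p 0.0489, adjusted 0.391; rho = -0.42, permutation p 0.175, adjusted 0.701) against the muscle score, neither of which passed the adjustment. Without the 2 farthest libraries they were -0.42 and -0.16, so that the value of Ebf2 rests on those libraries, and within the runs of library numbers they were -0.46 and -0.64 for Prdm16 and 0.52 and -0.69 for Ebf2 (n = 6 and 7). Esrra had r = 0.71 with Ucp1 (permutation p 0.00557, adjusted 0.111; rho = 0.66, permutation p 0.0160, adjusted 0.320), and 0.60 without the 2 farthest libraries. Ppargc1a had r = -0.61 with the fibroblast score (permutation p 0.0348, adjusted 0.348; rho = -0.62, permutation p 0.0286, adjusted 0.381), -0.57 without the 2 farthest libraries, -0.58 and -0.74 within the runs of library numbers (n = 6 and 7) and -0.70 to -0.53 with a library left out. The other 9 members had r between -0.45 (Ebf2) and 0.21 (Tbx15) with that score. Ppargc1a had r = 0.13 with Ucp1 (permutation p 0.663, adjusted 0.945; rho = 0.10, permutation p 0.753, adjusted 0.941) and r = -0.43 with Axl (permutation p 0.152, adjusted 0.699; rho = -0.46, permutation p 0.126, adjusted 0.637), of which the first was -0.16 and 0.65 and the second -0.19 and -0.73 within the runs (n = 6 and 7).

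The spread of Ppara was related to a measure added after seeing the data, the mean log2 CPM of 5552 genes with more than 5000 bases of merged exon minus that of 1200 genes with fewer than 1500. This difference was 0.51 in WT replicate 2 and between 0.95 and 1.27 in the other 12 libraries, and its group means were 1.05 ± 0.10 (SD, n = 8) and 1.05 ± 0.31 (SD, n = 5), with an exact permutation p of 0.958. Ppara, whose 3836 bases of exon put it in neither set, rose with it, with r = 0.92 (permutation p 2e-05, adjusted over 50 relations 0.001) and rho = 0.88 (permutation p 7e-05, adjusted 0.00175). WT replicates 1 and 5, with 1.27 and 1.26, had the highest Ppara of all libraries, and WT replicate 2 the lowest. Without WT replicates 1 and 2, the farthest from the median, r was 0.92, within the runs of library numbers it was 0.98 (n = 6) and 0.89 (n = 7), and with each library left out in turn it was 0.91 to 0.93. The genes most like Ppara were Etnk1, Pdpr and Tgfbrap1, each with r = 0.98. Prdm16 (9321 bases of exon), Ebf2 (6928) and Ppargc1a (6592) are themselves among the 5552 long genes, so their values are not independent of the measure. Of the members other than Ppara, Prdm16 (0.65), Ppargc1a (0.63), Esrra (-0.69) and Cebpb (-0.65) had an unadjusted permutation p under 0.05 and missed the adjustment. Without WT replicates 1 and 2 these values were 0.84, 0.39, -0.34 and -0.49, and within the lower and upper run they were 0.47 and 0.84, 0.81 and 0.02, -0.97 and 0.01, and -0.58 and -0.76. With a library left out, the relation of Prdm16 ran from 0.59 to 0.77 and passed the adjustment without WT replicate 1 (permutation adjusted p 0.00833), while those of Ppargc1a, Esrra and Cebpb fell in size to 0.43, -0.40 and -0.44 without WT replicate 2.

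**Figure D4:**
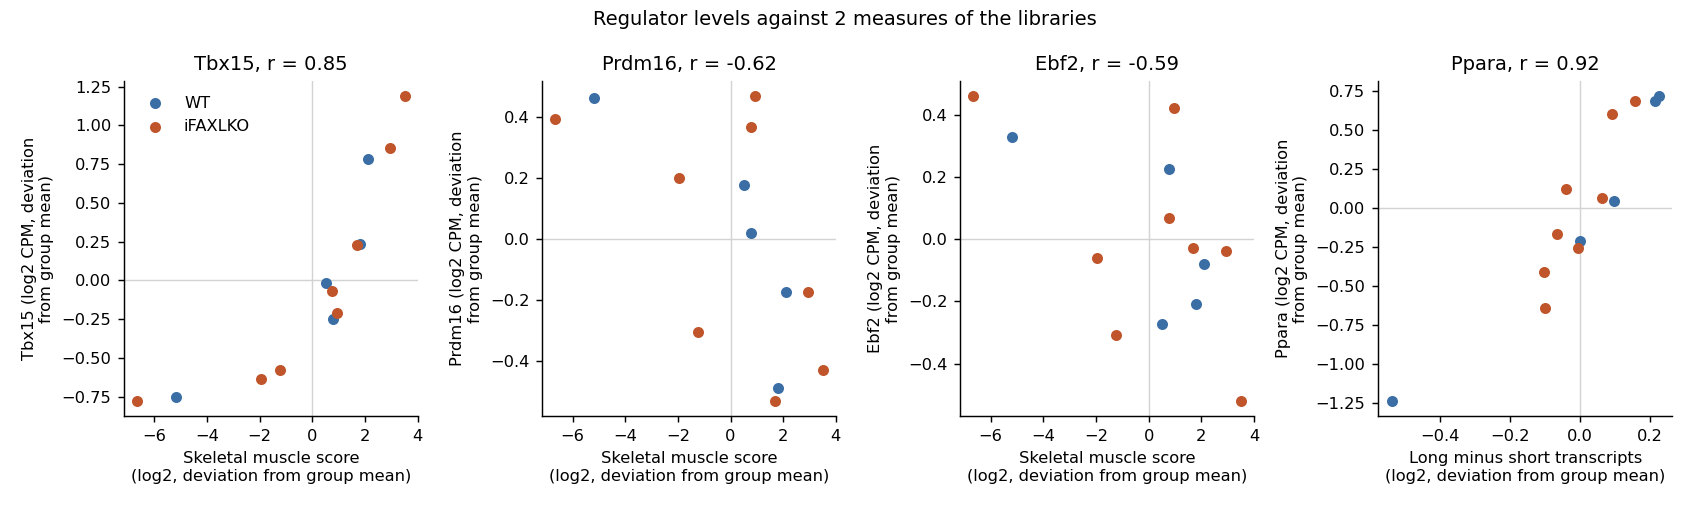
Deviation from the group mean of log2 CPM of Tbx15, Prdm16 and Ebf2 against the skeletal muscle score, and of Ppara against the difference between long and short transcripts, with 1 dot per library (blue, WT, n = 5; orange, iFAXLKO, n = 8). Tbx15 rises with the muscle score in both groups (r = 0.85), and in the panel of Ppara the lowest dot is WT replicate 2.

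For the remaining members, the genes most alike across the 13 libraries were Rbm12, Ptpru and Rgp1 for Prdm16 (r = 0.90, 0.90 and 0.89), Lurap1 and Slc16a10 for Ebf2 (0.91 and 0.90) and Map2k1, Coq10b and mt-Rnr2 for Pparg (0.89, 0.89 and 0.89). They were Parp16, BC049987 and Gatd1 for Cebpa (0.96, 0.95 and 0.93), Actr8, Rps16 and Snhg6 for Cebpb (0.97, 0.90 and 0.89) and Cyhr1, Lyrm4 and Snhg20 for Esrra (0.96, 0.96 and 0.94). For the coactivators they were Fgd4, Aftph and Kif5b with Ppargc1a (0.96, 0.93 and 0.91) and Ssh2, Gm49599 and Mib1 with Ppargc1b (0.95, 0.94 and 0.94). Each is from the top of a ranking over all genes tested and carries no test.

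Genes that work with the members did not pass the test either. Of 10 nuclear receptor partners, which include the RXR partners of the PPARs, 0 passed the adjusted p, 4 had a positive and 6 a negative log2 fold change, and the median was -0.04. The smallest p-values were those of the thyroid hormone receptors Thrb (0.21, edgeR adjusted p 0.757) and Thra (0.06, 0.952) on the higher side and of Ppard (-0.13, 0.734) and the glucocorticoid receptor gene Nr3c1 (-0.12, 0.879) on the lower side. Of 15 coactivators and cofactors, 0 passed, 6 were positive and 9 negative, with a median of -0.03. Ncoa1, a receptor coactivator, had -0.26 (SE 0.11, unadjusted edgeR p 0.0332, adjusted p 0.628) with 0 of 8 iFAXLKO libraries above the WT mean, and was followed by Ctbp2 (-0.13, 0.823), a corepressor that PRDM16 uses at white fat genes, and, on the higher side, by Ncoa3 (0.15, 0.809) and Ehmt1 (0.07, 0.877), the methyltransferase of the PRDM16 complex. Among 10 corepressors and brake factors, 0 passed, with 6 positive, 4 negative and a median of 0.03. Those with the smallest p were Nrip1, which encodes the corepressor RIP140 (0.28, edgeR adjusted p 0.746), Rbl1 (0.22, 0.867), Rb1 (-0.20, 0.689) and Zbtb7b (-0.16, 0.732), a factor that sits in this list although it is known to favour brown fat.

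Of 22 other transcription factors of brown fat, 20 were tested, 0 passed, 11 were positive and 9 negative, with a median of 0.01. Tbx1 and Foxc2 were too low to be tested. Cebpd, a relative of Cebpb, was at 6.12 ± 2.62 CPM in iFAXLKO (SD, n = 8) and 3.95 ± 0.96 CPM in WT (SD, n = 5), with a log2 fold change of 0.63 (SE 0.28, unadjusted edgeR p 0.0409, adjusted p 0.647). Foxo1, a target of insulin and AKT signalling, was at 67.4 ± 25.0 CPM in iFAXLKO (SD, n = 8) and 50.9 ± 7.58 CPM in WT (SD, n = 5), with a log2 fold change of 0.41 (SE 0.22, edgeR adjusted p 0.721). On the lower side stood Ebf1 (-0.31, edgeR adjusted p 0.678), the sister gene of Ebf2, and Nfia (-0.13, 0.775), a partner of PPARγ at brown fat enhancers.

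Most target genes of the members had negative log2 fold changes, beside 53.6% of all genes tested, and 0 passed the test. Cpt1b (-0.08) and Acadm (-0.07) are counted in both the PPAR list and the list of PGC-1 and ERR targets. Of 17 PPAR target genes, 0 passed, 2 were positive and 15 negative, with a median of -0.08. Those with the smallest p were the lipid droplet gene Plin2, at 655 ± 113 CPM in iFAXLKO (SD, n = 8) and 823 ± 87.9 CPM in WT (SD, n = 5), with a log2 fold change of -0.33 (SE 0.12, edgeR adjusted p 0.535), Fabp3 (-0.31, 0.565) and, on the higher side, Slc27a1 (0.13, 0.879). Of 12 targets of PGC-1 and ERR, 0 passed, 2 were positive and 10 negative, with a median of -0.08, led by Atp5b (-0.21, edgeR adjusted p 0.696) and Idh3a (-0.13, 0.734), and the 2 positive ones were Cox5b (0.04, 0.978) and Tfam (0.00, 0.995). Of 10 brown-selective targets of PRDM16 and EBF2, 0 passed, 1 was positive and 9 negative, with a median of -0.13. The elongase gene Elovl3 was at 125 ± 45.3 CPM in iFAXLKO (SD, n = 8) and 202 ± 25.1 CPM in WT (SD, n = 5), with a log2 fold change of -0.69 (SE 0.21, unadjusted edgeR p 0.00572, adjusted p 0.474), Ucp1 had -0.19 (edgeR adjusted p 0.835) and Slc29a1, the one on the higher side, 0.08 (0.949). Of 5 white-selective genes that PRDM16 represses, 4 were tested, 0 passed and all 4 were positive, with a median of 0.20, which was 0.60 without WT replicate 2. Retn, the resistin gene, was at 40.6 ± 11.5 CPM in iFAXLKO (SD, n = 8) and 22.3 ± 11.0 CPM in WT (SD, n = 5), with a log2 fold change of 0.87 (SE 0.27, edgeR adjusted p 0.490), and Psat1 had 0.19 (0.882). These lists were fixed with earlier results of these libraries known, so their direction is no independent evidence.

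**Figure D5:**
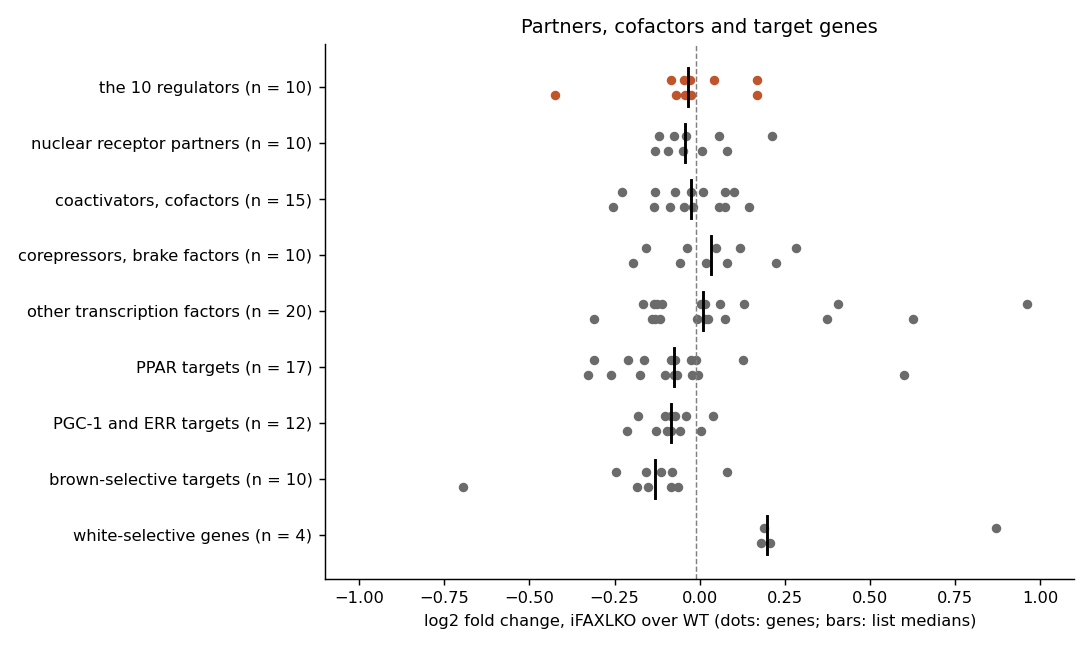
log2 fold change of iFAXLKO over WT for each tested gene of the regulators and of 8 related lists, with 1 dot per gene, a bar at each list's median and a dashed line at the median of all 13360 genes (-0.01). List medians lie between -0.13 (brown-selective targets) and 0.20 (white-selective genes), and no gene shown passed the adjusted test.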

How the data were processed

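The deposited files hold, per library, raw counts made by the authors, 1 whole number per Ensembl identifier. The submitters' processing notes name bcl2fastq 2.20, fastp 0.20.0, STAR 2.7.4a, DESeq2 and GRCm38.p6, whereas the methods of the study name Trim Galore and hisat2. Ribosomal RNA was depleted according to the methods, whereas polyA RNA was used according to the labels, and the counting tool and strand setting are not given in the sources used here. Symbols, positions and exon lengths (merged exons) came from GENCODE M21 (42347 identifiers matched), and member levels compared between genes are CPM per kilobase of exon.

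Counts were scaled by TMM, filtered (more than 1 CPM in at least 5 libraries) and tested with edgeR 4.0.16 (quasi-likelihood F test, robust, 2-sided; R 4.3.3), with Benjamini-Hochberg adjustment over 13360 genes. SE is the log2 fold change divided by the square root of F. Log2 CPM used a prior count of 2. DESeq2 1.42.0 and limma 3.58.1 served as alternatives, and permutation tests used NumPy 2.4.6 and SciPy 1.17.1. The fits were tested on simulated counts. No pair of libraries of the same group was alike within sampling noise. The members, lists and the rule for naming genes (all members and, per list, the 2 genes with the smallest p in each direction; marker lists of other cells are given by counts) were chosen with earlier results of these data known. A few genes it selects are not reported here. The fibroblast covariate, the fits within runs of library numbers and the measure of long against short transcripts were chosen after seeing the data.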

Additional observations from a re-analysis of the deposited data

Results flagged for a closer look

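Of 20 sets of values (10 members in each of 2 groups), 1 held a library far from the others. Cebpa in WT replicate 2 was at 670.0 CPM, and its gap to the next WT library was 0.775 of the range of the group, above the 95% limit of 0.710 for 5 samples. Chance flags about 1 in 20 such sets. The same library was the lowest of all for Ppara and had the lowest difference between long and short transcripts (0.51). Cebpa had r = -0.31 with that difference over 13 libraries (permutation p 0.168, adjusted 0.494; rho = -0.34, permutation p 0.235, adjusted 0.618), and 0.07 without WT replicates 1 and 2. Without it the log2 fold change of Cebpa was 0.07, and it was not called.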

How the results depend on the processing

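No member was called under any of 13 alternatives or with any library left out (lowest adjusted p 0.375, Ppara without WT replicate 2). Signs were unstable: 21 of 130 member values turned under the alternatives and 14 of 130 with a library left out, for causes that were not tested. This was not confined to values near 0. Prdm16, Ebf2 and Ppara, which had the largest log2 fold changes, turned under 1 alternative each, and under 0 of the fits with a library left out. The number of genes called (17) was 67 with DESeq2, 8 with the fibroblast covariate and 14 to 19 with a library left out, for causes that were not tested. With fewer genes or samples it was 7 (protein-coding genes alone), 2 (lower run of library numbers) and 2 (upper run). The replicate number as a block gave 7 genes and 0 members. Same-numbered libraries did not pair (deviations correlated at 0.39, 0.42, 0.19, 0.18 and -0.61), and under this replicate block Prdm16 had -0.092, Ebf2 -0.034, Cebpb 0.052, Esrra 0.00223 and Tbx15 0.031.

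With voom and sample weights Cebpa came to 0.080, Cebpb 0.11, Ppargc1b -0.014, Esrra 0.061 and the white-selective median 0.76. Upper quartile factors gave Cebpa 0.00195, and the muscle score as a covariate gave Tbx15 0.020. The fibroblast covariate, which differs between the groups, left 1 member negative and gave Pparg 0.053, Ppara 0.025, Cebpa 0.018, Cebpb 0.021, Ppargc1a 0.27, Esrra 0.062, Axl -0.20, Ucp1 0.17 and medians of 0.029 for nuclear receptor partners, 0.025 for fibroblast and -0.11 for macrophage markers. The lower run gave medians of 0.51 (endothelial) and 0.33 (Schwann cell), and the upper run left 3 members negative, with Pparg 0.19, Cebpb 0.044, Ppargc1a 0.058, Tbx15 0.38 and medians of 0.85 (white-selective), -0.092 (endothelial) and -0.10 (Schwann cell).

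With a library left out, 4 to 7 members were negative (4 without WT replicate 2), and values ran from 0.063 (without WT replicate 2) to 0.297 (without WT replicate 5) for Prdm16, 0.096 (without iFAXLKO replicate 8) to 0.258 (without WT replicate 5) for Ebf2, -0.163 (without WT replicate 2) to -0.0035 (without WT replicate 5) for Ppargc1a, -0.63 to -0.24 for Ppara, -0.083 to 0.014 for Pparg, -0.065 to 0.072 for Cebpa, -0.11 to 0.082 for Cebpb, -0.081 to 0.16 for Ppargc1b, -0.097 to 0.050 for Esrra and -0.32 to 0.16 for Tbx15, and 0 to 2 relations passed. The r of Ppargc1a and Ucp1 was -0.042 without the 2 farthest libraries, -0.16 in the lower run and -0.030 to 0.45 with a library left out. Within a run, 6 or 7 libraries leave few distinct permutations. Tbx15, with 64 to 272 counts, is the member most limited by depth.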
